A study of Mus musculus with 31 samples.

Results

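Activin A and the transforming growth factor beta (TGF-beta) proteins are secreted dimers of 1 protein family, and 10 genes of their signalling route were followed here in immune cells sorted from irradiated mouse mammary tumours. The 10 genes, chosen by symbol from the 38406 genes counted in every library, were the ligand genes Inhba, Tgfb1, Tgfb2 and Tgfb3, the receptor genes Tgfbr1, Tgfbr2, Acvr1b and Acvr2a, the intracellular inhibitor Smad7 and the TGF-beta-induced matrix gene Tgfbi. Smad7 and Tgfbi are neither ligands nor receptors. The libraries hold RNA of CD45.2+ cells, that is leukocytes, taken by flow sorting from AT3-OVA tumours, a triple negative mammary line that carries ovalbumin, grown in the mammary fat pad of wildtype female C57BL/6 mice. On day 5 there were 6 libraries after 3 local doses of 4 Gy given a day apart (3x4Gy), 4 of its mock (3x0Gy, anaesthesia with no radiation), 6 after 1 dose of 20 Gy (1x20Gy) and 4 of its mock (1x0Gy). On day 13 there were 7 libraries of 1x20Gy and 4 of 1x0Gy. The 2 days carry different sample codes and may be separate experiments, so levels were not compared across days. Nothing in the labels says that each library came from its own mouse, so p-values measure only the spread between libraries.

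In this pathway a ligand brings together a type II and a type I receptor kinase, which phosphorylate Smad proteins that then move to the nucleus. Activin A, a dimer of the Inhba product, uses Acvr2a as type II and Acvr1b as type I receptor, and the TGF-beta ligands use Tgfbr2 and Tgfbr1. TGF-beta is secreted in a latent complex and must be released before it can bind. Smad7 is induced by the pathway and blocks the type I receptor. In tumours TGF-beta is best known for restraining T cells and favouring matrix production, and activin A is made by macrophages among other cells.

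Libraries held 2641229 to 7541144 reads counted in genes. Reads outside genes made up 5.65 to 32.02% of uniquely placed reads, those in genes, outside genes or ambiguous between genes. The level used throughout is CPM, a gene's reads relative to all counted reads of its library, scaled by TMM factors. Ptprc, which encodes CD45, was at 378 CPM or more in every library. Macrophage and monocyte markers, 9 genes, summed to 4119 to 18756 CPM and 4 B cell markers to 1.39 to 8.02 CPM. The summed level of 7 epithelial and tumour cell markers was 150 to 1849 CPM over the 31 libraries, and that of 8 fibroblast markers 6.63 to 185 CPM, so transcripts of other cell types were in the sorted samples. One library in each day 5 group of the fractionated schedule stood apart from its group: 3x4Gy library 1 had a median correlation with its group of 0.934 and 3x0Gy library 2 of 0.928, against 0.942 to 0.976 in the other libraries. Results that rest on them are also given with both left out, a choice made after seeing the data. In bulk samples, fewer cells of a type and less RNA per cell cannot be told apart.

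Per kilobase of exon, Tgfbi was the highest of the 10 genes in all 6 groups, with group means of 221 to 462 CPM per kb. Tgfbr1, the type I receptor gene of TGF-beta, came next with means of 15.8 to 28.9 CPM per kb. Tgfb1, Tgfbr2 and Smad7 followed and changed places between groups, with means of 6.46 to 15.4 CPM per kb, and at least 1 pair of neighbours among them had overlapping library ranges in every group. Tgfb3 averaged 2.02 to 6.46 CPM per kb. The activin receptor genes were low, at 1.25 to 3.36 CPM per kb for Acvr1b and 0.812 to 1.46 CPM per kb for Acvr2a. Inhba, like Tgfb1 and Smad7, changed place between groups. It ranked seventh of the 10 genes, next to Tgfb3, in both irradiated groups of day 5, at 3.11 ± 1.71 CPM per kb in 3x4Gy (SD, n = 6) and 2.97 ± 1.21 CPM per kb in 1x20Gy (SD, n = 6). It ranked ninth, next to Tgfb2, in their mocks, at 0.287 ± 0.166 CPM per kb in 3x0Gy and 0.387 ± 0.179 CPM per kb in 1x0Gy (SD, n = 4 each). Tgfb2 was last everywhere with means of 0.115 to 0.298 CPM per kb.

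The members were chosen with the 3 comparisons of an irradiated group with its own mock in view, so their changes there, and differences between those changes, are descriptions and carry no p-value. A gene is called when edgeR's quasi-likelihood test, adjusted over all genes by Benjamini-Hochberg, gives an adjusted p below 0.05. Of the 9 members that passed the filter on low counts on day 5, 1 was called higher and 1 lower in 3x4Gy against 3x0Gy, where 5.2% of all 12021 genes tested were called higher and 7.09% lower. In 1x20Gy against 1x0Gy on day 5, 1 was called higher and 2 lower, against 3.67% and 4.88% of all genes. On day 13 none of 9 was called, against 4.22% of 11071 genes called higher and 3.83% lower. Nothing is read from these member counts. The median log2 fold change over the tested members was -0.12, -0.18 and -0.26 in the 3 comparisons, beside -0.004, 0.02 and 0.005 over all genes. Tgfb2 was the member that did not pass.

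**Figure D1:**
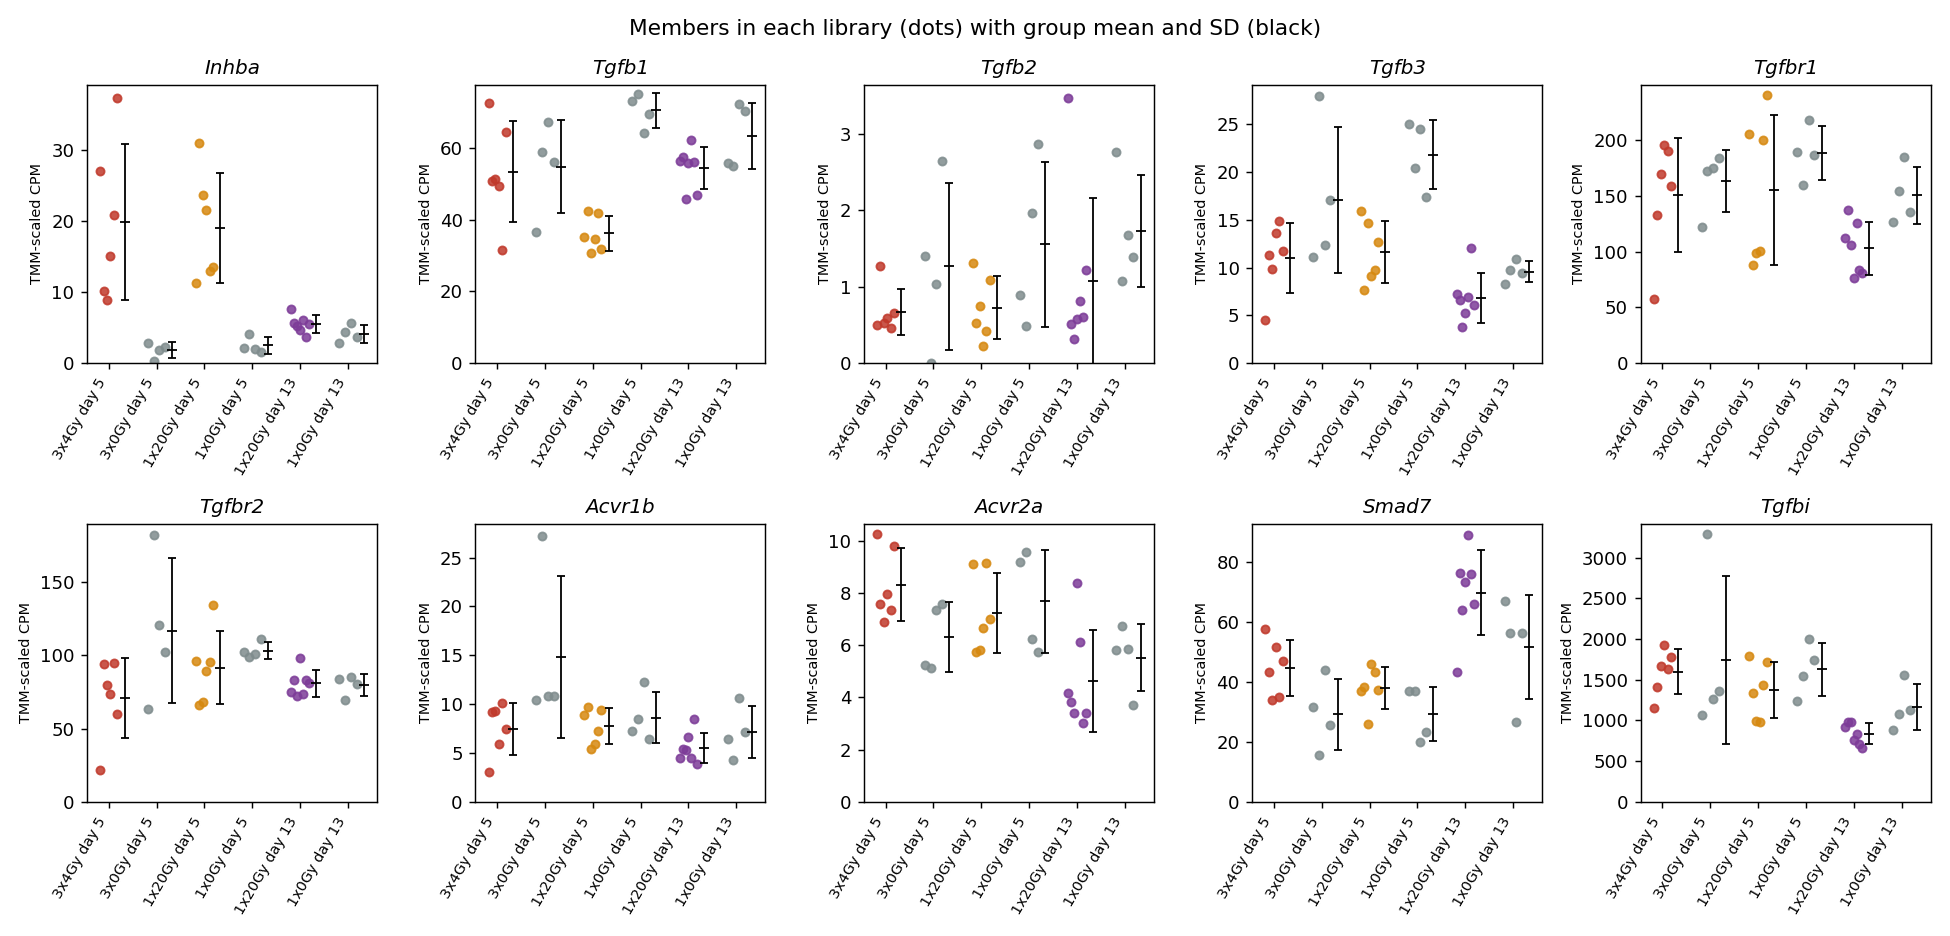
TMM-scaled CPM (vertical axes, linear from 0) of each of the 10 genes in the 31 libraries by group, with coloured dots for irradiated and grey dots for mock libraries, and the group mean and SD in black. Inhba lies at 8.81 to 37.3 CPM in 3x4Gy and 11.2 to 30.98 CPM in 1x20Gy libraries of day 5, above every day 5 mock library.

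Inhba, which encodes the activin beta A subunit, rose in irradiated tumours on day 5 under both schedules. In 3x4Gy libraries it ranged over 8.81, 17.96 and 37.3 CPM (lowest, median and highest of 6). The 4 libraries of 3x0Gy had 2.79, 0.341, 1.88 and 2.33 CPM. No irradiated library overlapped the mock libraries, and the lowest mock value, in library 2, rests on 1 read. The log2 fold change was 3.36 (SE 0.49), a 10.3-fold higher level, and 2.98 with 3x4Gy library 1 and 3x0Gy library 2 both left out.

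After 1 dose of 20 Gy Inhba was also above its mock on day 5. The 1x20Gy libraries ranged over 11.2, 17.5 and 30.98 CPM, and the 4 libraries of 1x0Gy had 2.17, 4.15, 1.96 and 1.61 CPM. All 6 irradiated libraries again lay above all 4 mock libraries. This was a log2 fold change of 2.93 (SE 0.45), or 7.63-fold. Behind these levels stand 43 to 178 reads per 1x20Gy library and 9 to 26 per 1x0Gy library, so the mock level is the less precise side of the ratio.

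By day 13 the Inhba levels of the groups overlapped. The 1x20Gy libraries ranged over 3.62, 5.57 and 7.61 CPM, and the 4 libraries of 1x0Gy had 2.76, 4.31, 5.64 and 3.70 CPM. This gave a log2 fold change of 0.39 (SE 0.26), not called. The change in the response from day 5 to day 13, each day against its own mock, was a log2 difference of -2.50 (SE 0.45), in a contrast where 2.01% of 11766 genes were called. It is built from the contrasts in view when the genes were chosen, so it carries no p-value here. Leaving out each library in turn kept it between -2.86 and -2.30. Since the sample codes differ by day, time and any batch that goes with the codes cannot be told apart in this difference.

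The 2 schedules were compared directly on day 5, a comparison that the rule for choosing the genes did not use. Inhba averaged 19.9 ± 10.9 CPM in 3x4Gy and 19.0 ± 7.73 CPM in 1x20Gy (SD, n = 6 each), a log2 difference of 0.05 (SE 0.33, edgeR adjusted p = 0.994) whose sign turned in 5 of the 12 fits without 1 library. The difference between the 2 responses, each against its own mock, was 0.43 on the log2 scale for Inhba (SE 0.66). Over the fits without 1 library the direct difference ran from -0.24 to 0.25, and a p that misses the threshold does not show that the schedules act alike. No member was called in the direct comparison, where 0.025% of all genes were called.

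The start of the Inhba gene lies at chr13:16011851 on the plus strand (GRCm38), and the gene ends at base 16031621. Its locus overlaps B230303A05Rik and Gm48444 on the minus strand, which were not analysed here. Tgfb1 lies at chr7:25687002-25705077 on the plus strand. The 250 bases before the start of Inhba and of Tgfb1 are shown because the first rose and the second fell in the same 1x20Gy libraries. The sequences are RefSeq promoter windows (GRCm38.p6), found for 8 of the 10 members and not for Tgfb3 and Smad7. They are printed 5′ to 3′ on the gene's strand, and capitals mark motif matches. The TATA box was searched as TATAAA. The GC box was searched as GGGCGG, and all motifs on both strands.
Inhba, chr13:16011601-16011850: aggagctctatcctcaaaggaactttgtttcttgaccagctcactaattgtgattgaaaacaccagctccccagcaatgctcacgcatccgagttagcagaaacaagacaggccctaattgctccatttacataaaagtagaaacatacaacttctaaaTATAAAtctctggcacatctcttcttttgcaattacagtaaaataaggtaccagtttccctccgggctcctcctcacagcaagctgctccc
Tgfb1, chr7:25686752-25687001: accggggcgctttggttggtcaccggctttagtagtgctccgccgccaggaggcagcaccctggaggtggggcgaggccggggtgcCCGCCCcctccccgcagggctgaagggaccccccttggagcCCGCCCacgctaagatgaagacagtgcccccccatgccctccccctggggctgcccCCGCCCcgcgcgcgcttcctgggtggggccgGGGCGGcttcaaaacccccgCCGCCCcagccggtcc
The Inhba window had 43.2% G and C, with 19.0% of all promoter windows lower, and 1 TATAAA match at 91 to 86 bases before the start. The Tgfb1 window had 75.2% G and C, with 96.1% of windows lower, and 5 GC box matches and no TATAAA. Of all 32851 windows, 12.4% held TATAAA and 32.7% a GC box. The AP-1 motif, TGANTCA, is in 6.75% of all windows and had no match in those of the 8 members. The same holds for the CREB motif, TGACGTCA, in 1.55% of all windows. It also holds for the Smad motif, GTCTAGAC, in 0.167%. A match is a description of letters and not of binding.

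Tgfb1, the main TGF-beta gene of leukocytes, was called lower on day 5 after 1x20Gy and not after 3x4Gy, and the direct difference between the schedules did not pass its test. In 1x20Gy libraries of day 5 it ranged over 30.8, 34.9 and 42.5 CPM, against 73.1, 75.1, 64.0 and 69.5 CPM in the 4 libraries of 1x0Gy. The groups did not overlap, and Tgfb1 fell with a log2 fold change of -0.96 (SE 0.18). In 3x4Gy libraries it ranged over 31.6, 51.1 and 72.5 CPM, against 36.6, 58.9, 67.3 and 56.1 CPM in 3x0Gy libraries, and these groups overlapped widely, with a log2 fold change of -0.05 (SE 0.18) whose sign turned in 3 of the 10 fits without 1 library.

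The difference between the 2 day 5 responses of Tgfb1 was 0.92 on the log2 scale (SE 0.26). No gene passed in that contrast (0% called by edgeR, while 714 had an unadjusted p below 0.05). DESeq2 called 1 gene in that contrast, which was not Tgfb1, and limma voom 0. The direct comparison gave Tgfb1 at 53.3 ± 14.0 CPM in 3x4Gy and 36.1 ± 4.96 CPM in 1x20Gy (SD, n = 6 each), a log2 difference of 0.56 (SE 0.17, edgeR adjusted p = 0.507). The self-test recovered 36% of 2-fold changes in the difference of the responses, against 85% in the direct comparison.

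On day 13 Tgfb1 ranged over 45.7, 56.0 and 62.1 CPM in 1x20Gy libraries, against 55.8, 55.0, 72.3 and 70.2 CPM in 1x0Gy libraries, which overlap. The response of day 13 less that of day 5 was 0.78 on the log2 scale (SE 0.17), a description like that of Inhba, and 0.72 without 1x0Gy day 13 library 2.

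Tgfb3, a TGF-beta gene more often linked with stroma, was also lower after 1x20Gy on day 5. It ranged over 7.66, 11.2 and 15.9 CPM in 1x20Gy libraries, against 25.0, 20.5, 24.6 and 17.4 CPM in 1x0Gy libraries, without overlap. It fell by 0.92 on the log2 scale (SE 0.27), a call that held without 1x20Gy library 1, 3 or 6 and ended without any of the other 7 libraries. In 3x4Gy libraries Tgfb3 ranged over 4.51, 11.6 and 14.9 CPM, against 11.2, 27.9, 12.3 and 17.1 CPM in 3x0Gy libraries, with a log2 fold change of -0.63 (SE 0.28), and -0.18 with the 2 libraries that stood apart left out. On day 13 the log2 fold change was -0.49 (SE 0.25), at 6.84 ± 2.59 CPM in 1x20Gy (n = 7) and 9.58 ± 1.06 CPM in 1x0Gy (SD, n = 4). Tgfb3 overlaps Ttll5 on the opposite strand, and since the strand setting of the counting is not known, reads of the 2 genes may not be told apart.

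Tgfb2 had 0 to 17 reads per library over all 31 libraries and was not tested. Its levels were 0.458 to 1.26 CPM in 3x4Gy and 0 to 2.64 CPM in 3x0Gy libraries, 0.229 to 1.30 CPM in 1x20Gy and 0.479 to 2.86 CPM in 1x0Gy libraries of day 5, and 0.311 to 3.46 CPM in 1x20Gy and 1.08 to 2.76 CPM in 1x0Gy libraries of day 13. The groups overlapped in each comparison, and each irradiated mean was below its mock mean, at 0.664 CPM in 3x4Gy and 1.26 CPM in 3x0Gy, 0.721 CPM in 1x20Gy and 1.55 CPM in 1x0Gy on day 5, and 1.07 CPM in 1x20Gy and 1.72 CPM in 1x0Gy on day 13.

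**Figure D2:**
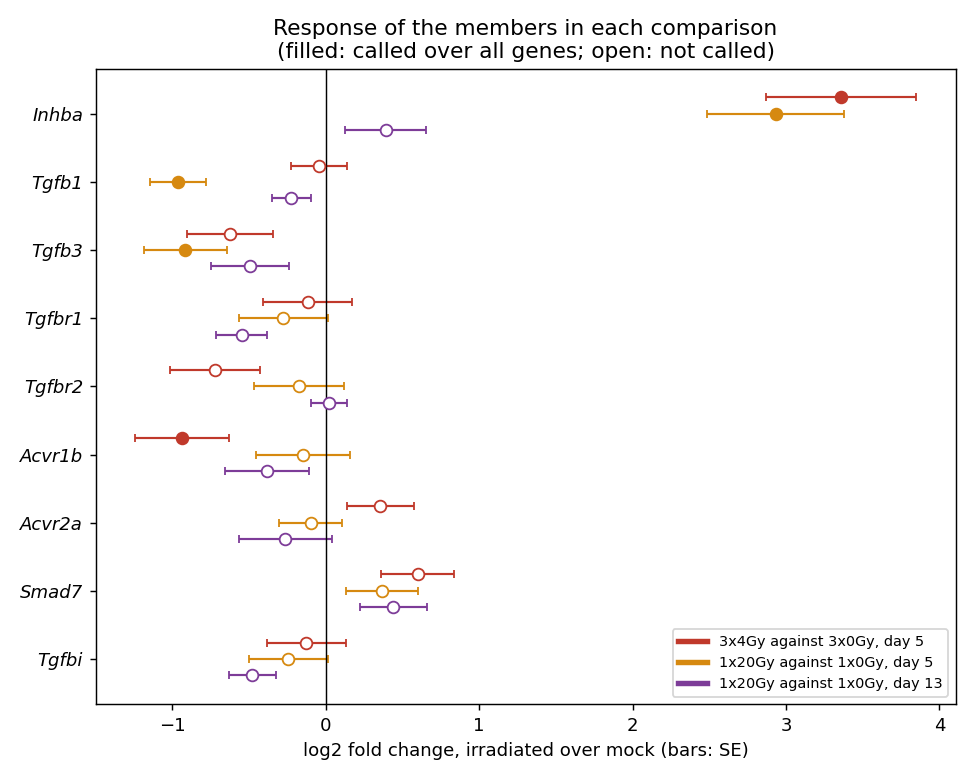
Log2 fold change of irradiated over mock (horizontal axis) with its SE as bars for the 9 tested members (vertical axis) in the 3 comparisons, in red for 3x4Gy on day 5, orange for 1x20Gy on day 5 and violet for 1x20Gy on day 13. Filled points are genes called over all genes tested. Inhba stands at 3.36 and 2.93 on day 5 and at 0.39 on day 13, and the other members lie between -0.96 and 0.60.

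Among the receptors, those of TGF-beta were not called in any comparison with a mock. Tgfbr1 averaged 151 ± 51.1 CPM in 3x4Gy (n = 6) and 164 ± 28.0 CPM in 3x0Gy (SD, n = 4), with a log2 fold change of -0.12 (SE 0.29) that was 0.06 with the 2 libraries that stood apart left out. In 1x20Gy on day 5 it averaged 156 ± 67.2 CPM (n = 6), against 189 ± 23.9 CPM in 1x0Gy (SD, n = 4), a log2 fold change of -0.28 (SE 0.29). The wide spread of the 1x20Gy group comes from 3 libraries at 87.7 to 101 CPM and 3 at 200 to 241 CPM.

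On day 13 Tgfbr1 ranged over 76.3, 106 and 137 CPM in 1x20Gy libraries, against 127, 154, 185 and 136 CPM in 1x0Gy libraries, with 1 irradiated library above the lowest 2 mock libraries. That gave a log2 fold change of -0.55 (SE 0.17). This value lay just outside the threshold in the analysis as described, and inside it under 5 of 6 other settings and without 1x20Gy library 2 or 5. Of 9 macrophage and monocyte markers, Csf1r, C1qb and C1qc were called lower in the same comparison and none higher. Over all genes 3.83% were called lower and 4.22% higher. The markers Ly6c2 and Ccr2, not called, had log2 fold changes of 0.48 and 0.22. The summed level of the 9 was 5656 to 7563 CPM in 1x20Gy and 7130.2 to 9484 CPM in 1x0Gy libraries. Their part in the level of Tgfbr1 was not tested.

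Tgfbr2, the type II receptor that binds TGF-beta first, ranged over 21.8, 76.7 and 95.1 CPM in 3x4Gy libraries, against 63.1, 182, 121 and 102 CPM in 3x0Gy libraries. The lowest value was that of 3x4Gy library 1 and the highest that of 3x0Gy library 2. The log2 fold change of -0.72 (SE 0.29) became -0.27 with both left out. In 1x20Gy it was -0.18 (SE 0.30) on day 5 and 0.02 (SE 0.12) on day 13, at 80.9 ± 9.0 CPM in 1x20Gy (n = 7) and 79.8 ± 7.26 CPM in 1x0Gy (SD, n = 4) on day 13.

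The activin type I receptor gene Acvr1b was called lower after 3x4Gy, but the call depends on single libraries. It ranged over 3.01, 8.29 and 10.1 CPM in 3x4Gy libraries, against 10.5, 27.3, 10.8 and 10.9 CPM in 3x0Gy libraries, so the groups did not overlap but nearly met. The log2 fold change was -0.94 (SE 0.31), and it was -0.36 and not called with 3x4Gy library 1 and 3x0Gy library 2 left out. The call also ended without 3x4Gy library 1, 4 or 6 or 3x0Gy library 2 alone, at -0.78, -0.88, -0.93 and -0.51. In 1x20Gy against 1x0Gy it was -0.15 (SE 0.31) on day 5 and -0.39 (SE 0.27) on day 13. The difference of the 2 day 5 responses was -0.79 on the log2 scale (SE 0.44), and the mock groups alone differed by 0.76 (3x0Gy over 1x0Gy, SE 0.33, edgeR adjusted p = 0.836).

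Acvr2a, the activin type II receptor gene, was not called in any comparison. It averaged 8.31 ± 1.39 CPM in 3x4Gy (n = 6) and 6.32 ± 1.34 CPM in 3x0Gy (SD, n = 4), a log2 fold change of 0.36 (SE 0.22). In 1x20Gy it was -0.10 (SE 0.21) on day 5 and -0.26 (SE 0.30) on day 13. Its locus overlaps Orc4 on the opposite strand, which had 3082 reads in the 31 libraries against 954 for Acvr2a.

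Smad7, whose protein shuts off the type I receptor, had a positive log2 fold change in all 3 comparisons and was called in none. It ranged over 34.02, 45.1 and 57.7 CPM in 3x4Gy libraries, against 31.7, 15.7, 43.8 and 25.6 CPM in 3x0Gy libraries. The log2 fold changes were 0.60 (SE 0.24) for 3x4Gy, 0.37 (SE 0.24) for 1x20Gy on day 5 and 0.44 (SE 0.22) for 1x20Gy on day 13. Without 3x0Gy library 3 the 3x4Gy value was 0.87 and called. Ptprc was called higher in the same comparison, at 749.6 to 1946 CPM in 3x4Gy and 378 to 811 CPM in 3x0Gy, and its part in the level of Smad7 was not tested.

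Tgfbi, a matrix protein gene that TGF-beta induces and macrophages express strongly, was not called either. It averaged 1597 ± 277 CPM in 3x4Gy (n = 6) and 1743 ± 1038 CPM in 3x0Gy (SD, n = 4), where library 2 alone had 3288 CPM. The log2 fold change was -0.13 (SE 0.26), and 0.44 with the 2 libraries that stood apart left out. In 1x20Gy it was -0.25 (SE 0.26) on day 5 and -0.48 (SE 0.15) on day 13, when it averaged 835 ± 129 CPM in 1x20Gy (n = 7) and 1163 ± 283 CPM in 1x0Gy (SD, n = 4). That day 13 value was called without 1x0Gy library 1, at -0.59, and under 2 of 6 other settings.

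The mock schedules gave a background for these values. Over the members tested, 3x0Gy against 1x0Gy gave log2 differences from -0.38 for Inhba to 0.76 for Acvr1b, and none was called. In that comparison edgeR called 0% of all genes, 667 had an unadjusted p below 0.05, and DESeq2 called 2 and limma voom 0.

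The 76 other genes of the pathway were read as 6 lists, of which 48 genes were tested on day 5 and 45 on day 13. In 3x4Gy against 3x0Gy, 4 of 48 were called higher and 12 lower, where 5.2% and 7.09% of all genes were. In 1x20Gy against 1x0Gy the counts were 2 higher and 8 lower of 48 on day 5 (3.67% and 4.88% of all genes), and 2 higher and 4 lower of 45 on day 13 (4.22% and 3.83% of all genes). Together 19 genes were called at least once, and Ltbp1 and Ctgf were called in each of the 3 comparisons. The median log2 fold change over the tested genes was -0.17, -0.06 and -0.16. No pathway gene was called between the 2 schedules, in the difference of their responses or between the mocks. These counts share libraries with those of the members, and the lists were chosen with earlier results known. Pathway genes are named below because they were called in these comparisons. Their adjusted p-values there state the call over all genes and are not a separate test of the gene.

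**Figure D3:**
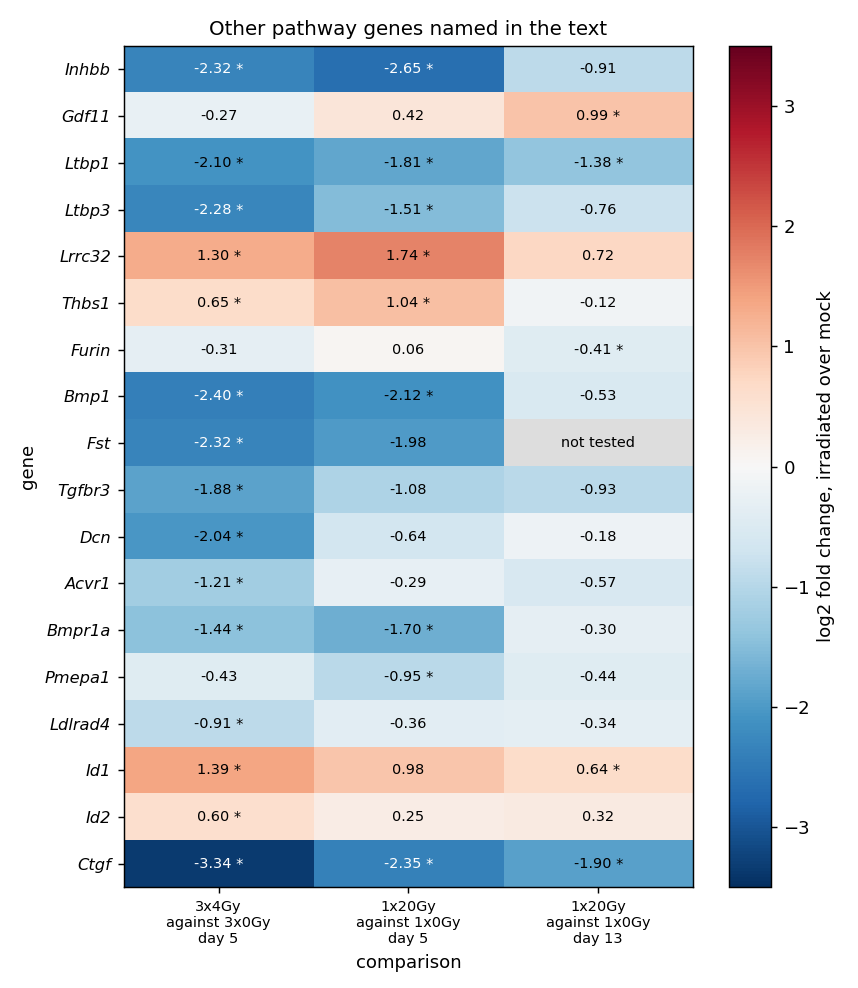
Log2 fold change of irradiated over mock (colour and number) of the other pathway genes named here (vertical axis) in the 3 comparisons (horizontal axis), with an asterisk where the gene was called. Ctgf has the lowest value at -3.34 and Lrrc32 the highest at 1.74.

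Of the 6 other ligands of the family tested on day 5, Inhbb fell after both schedules while the rest were not called. Inhbb encodes the activin beta B subunit, and averaged 0.979 ± 0.828 CPM in 3x4Gy (n = 6) and 5.33 ± 2.32 CPM in 3x0Gy (SD, n = 4), a log2 fold change of -2.32 (SE 0.46, edgeR adjusted p = 0.00197). In 1x20Gy it averaged 0.505 ± 0.266 CPM (n = 6) against 3.38 ± 0.806 CPM in 1x0Gy (SD, n = 4), a log2 fold change of -2.65 (SE 0.51, edgeR adjusted p = 0.00211). So Inhba and Inhbb moved in opposite directions on day 5, though Inhbb rests on 0 to 45 reads per library in the fractionated groups. It had 1 to 5 reads per 1x20Gy library and 14 to 32 per 1x0Gy library of day 5. Gdf11, a relative of myostatin, was called on day 13 with a log2 fold change of 0.99 (SE 0.23, edgeR adjusted p = 0.0135), a call that ended without 1x0Gy library 3, at 0.95.

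In the list of latency and activation genes, 2 of 10 rose and 3 fell in both day 5 comparisons. Over all genes 5.2% were called higher and 7.09% lower in 3x4Gy, and 3.67% higher and 4.88% lower in 1x20Gy. Ltbp3, which tethers latent TGF-beta to matrix, averaged 7.26 ± 2.35 CPM in 3x4Gy (n = 6) and 36.0 ± 17.5 CPM in 3x0Gy (SD, n = 4), a log2 fold change of -2.28 (SE 0.31, edgeR adjusted p = 4.22e-05). In 1x20Gy its log2 fold change was -1.51 (SE 0.31, edgeR adjusted p = 0.0031). Ltbp1, of the same role, had log2 fold changes of -2.10 in 3x4Gy, -1.81 in 1x20Gy on day 5 and -1.38 in 1x20Gy on day 13. The Ltbp1 call ended on day 5 without 1x0Gy library 3 or 4, at -1.71 and -1.64, and on day 13 without 1x0Gy library 3, at -1.17. Bmp1, a protease that cuts such matrix proteins, fell by 2.40 and 2.12 on the log2 scale in 3x4Gy and 1x20Gy on day 5, and the 1x20Gy call ended without 1x20Gy library 2 or 4 or 1x0Gy library 3 or 4.

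The latency genes that rose were Lrrc32 and Thbs1. Lrrc32 encodes GARP, which displays latent TGF-beta on activated regulatory T cells, and averaged 11.9 ± 4.17 CPM in 1x20Gy (n = 6) and 3.55 ± 0.661 CPM in 1x0Gy (SD, n = 4) on day 5. Its log2 fold change was 1.74 (SE 0.41, edgeR adjusted p = 0.00887) there and 1.31 (SE 0.40, edgeR adjusted p = 0.0368) in 3x4Gy. That second call ended without 3x4Gy library 2, 3 or 5 or 3x0Gy library 2 or 4, and with the 2 libraries that stood apart left out. Regulatory T cell markers moved with it: of the list of 6, 4 of 5 tested were called higher in each day 5 comparison. The share of all genes called higher was 5.2% in 3x4Gy and 3.67% in 1x20Gy. The summed level of the 6 was 310 to 658 CPM in 3x4Gy and 172 to 299 CPM in 3x0Gy libraries. It was 341 to 913 CPM in 1x20Gy and 109 to 262 CPM in 1x0Gy libraries. The part of these markers in the level of Lrrc32 was not tested.

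Thbs1, whose product thrombospondin 1 can release active TGF-beta, averaged 186 ± 47.5 CPM in 1x20Gy (n = 6) and 90.0 ± 20.1 CPM in 1x0Gy (SD, n = 4) on day 5. That is a log2 fold change of 1.04 (SE 0.20, edgeR adjusted p = 0.00228). In 3x4Gy it was 0.65 (SE 0.20, edgeR adjusted p = 0.0387), and that call ended without 3x4Gy library 1, 5 or 6 or 3x0Gy library 1, 2 or 3, and with the 2 libraries that stood apart left out. The 1x20Gy response of Thbs1 on day 13 was lower than that on day 5 by a log2 difference of -1.12 (SE 0.29). Thbs1 is named because it was called in a comparison that this contrast is built from, so the value is a description without a p-value. Its call by edgeR in this contrast ended in 16 of the 21 fits without 1 library, with values from -1.27 to -0.98. Furin, a protease that processes the precursor, fell on day 13 with a log2 fold change of -0.41 (SE 0.12, edgeR adjusted p = 0.0443), a call that held without 1x20Gy library 5 or 7 or 1x0Gy library 1 and ended without any of the other 8 libraries.

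Extracellular antagonists and accessory receptors were called lower after 3x4Gy for 3 of 5 genes tested, where 7.09% of all genes were. The log2 fold change was -2.32 for Fst, the activin trap follistatin, -1.88 for Tgfbr3, the accessory receptor betaglycan, and -2.04 for Dcn, the matrix proteoglycan decorin. In 1x20Gy on day 5 none of these 5 was called, and the difference between the schedules was not called for any of them. Fst averaged 0.440 ± 0.378 CPM in 3x4Gy (n = 6) and 2.35 ± 0.961 CPM in 3x0Gy (SD, n = 4), which rests on 0 to 22 reads per library, and its call ended without 3x0Gy library 4, at -2.08. Among other receptors, Acvr1 fell by 1.21 on the log2 scale in 3x4Gy, a call that ended without 3x0Gy library 2, at -1.003, and Bmpr1a, a receptor of bone morphogenetic proteins, fell by 1.44 in 3x4Gy and 1.70 in 1x20Gy on day 5. The 3x4Gy call for Bmpr1a ended without 3x4Gy library 4, 5 or 6 or 3x0Gy library 1, 3 or 4. That call also ended with the 2 libraries that stood apart left out, at -1.51. The 1x20Gy call for Bmpr1a ended without 1x0Gy library 3.

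Of the 15 Smads and intracellular regulators tested on day 5, 1 was called lower in each comparison. The share of all genes called lower was 7.09% in 3x4Gy and 4.88% in 1x20Gy. Ldlrad4, an inhibitor of receptor-activated Smads, averaged 11.2 ± 2.46 CPM in 3x4Gy (n = 6) and 21.5 ± 3.15 CPM in 3x0Gy (SD, n = 4), a log2 fold change of -0.91 (SE 0.15, edgeR adjusted p = 0.000485). Pmepa1, another pathway inhibitor, averaged 300 ± 107 CPM in 1x20Gy (n = 6) and 578 ± 136 CPM in 1x0Gy (SD, n = 4), a log2 fold change of -0.95 (SE 0.26, edgeR adjusted p = 0.0209), and its call ended without 1x0Gy library 1 or 4, at -0.85 each. On day 13 none of 14 was called.

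Target genes did not move one way. Ctgf, a matrix-associated growth factor, fell, at 1.49 ± 1.23 CPM in 3x4Gy (n = 6) and 16.3 ± 7.93 CPM in 3x0Gy (SD, n = 4), a log2 fold change of -3.34 (SE 0.59, edgeR adjusted p = 0.000805). Ctgf was at -2.35 in 1x20Gy on day 5, a call that ended without 1x0Gy library 4, at -2.002, and at -1.90 on day 13. Id1, a target of the bone morphogenetic protein branch, rose by a log2 fold change of 1.39 (SE 0.33, edgeR adjusted p = 0.00799) in 3x4Gy. It rose by 0.64 (SE 0.16, edgeR adjusted p = 0.019) in 1x20Gy on day 13, a call that ended without 1x0Gy library 2, 3 or 4. On day 5 Id1 was not called in 1x20Gy, at 30.4 to 50.0 CPM against 12.1 to 27.9 CPM in 1x0Gy, without overlap. Id2 rose by 0.60 (SE 0.15, edgeR adjusted p = 0.00863) in 3x4Gy, a call that ended when only the libraries compared were fitted, at 0.58.

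Of 8 fibroblast markers 5 were tested, and 5 were called lower in 3x4Gy, 2 (Postn and Sparc) in 1x20Gy on day 5 and 4 in 1x20Gy on day 13. The shares of all genes called lower in these comparisons were 7.09, 4.88 and 3.83%. Col1a1, Col1a2 and Col3a1 were not called in 1x20Gy on day 5, at log2 fold changes of -1.43, -0.85 and -1.28. Pdgfrb, which was not tested, averaged 0.988 ± 0.172 CPM in 1x20Gy (n = 6) and 0.639 ± 0.186 CPM in 1x0Gy (SD, n = 4) on day 5, higher in all irradiated libraries. The summed level of the 8 was 11.8 to 43.6 CPM in 3x4Gy and 84.1 to 180 CPM in 3x0Gy libraries. On day 5 it was 11.1 to 58.7 CPM in 1x20Gy and 51.3 to 185 CPM in 1x0Gy, and on day 13 it was 6.63 to 27.7 CPM in 1x20Gy and 36.3 to 68.2 CPM in 1x0Gy. None of the 8 was at 0 in a whole group. Epithelial and tumour cell markers were at 154 to 640 CPM in 3x4Gy and 425 to 1079 CPM in 3x0Gy. On day 5 they were at 150 to 494 CPM in 1x20Gy and 420 to 594 CPM in 1x0Gy. Their summed level was not lower on day 13, at 669 to 1849 CPM in 1x20Gy (median 928) and 640 to 870 CPM in 1x0Gy (median 831). By gene, 2 of 7 tested were called lower in 3x4Gy and 4 of 7 in 1x20Gy on day 5, with 0 higher. On day 13, 1 of 6 tested was called higher and 1 lower, where 4.22% of all genes were called higher. The part of these cell types in the lower level of Tgfb3, Inhbb, Ltbp1, Ltbp3, Bmp1, Dcn and Ctgf was not tested.

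Within groups the members could be set against 13 marker lists in the 31 libraries, a measure that the choice of members did not use. Each value is a library's log2 CPM less its group mean, a list is the mean of its genes, and p-values come from 100000 permutations within groups, adjusted over the 130 pairs. By Pearson's r 10 pairs had an adjusted p below 0.05, and 7 also without the 2 libraries farthest from the median of the list. These relations are across libraries whose RNA is a mixture of cell types and whose levels share 1 library total.

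Tgfbi went with the macrophage and monocyte list (r = 0.845, rho = 0.844, adjusted p = 0.00065 by permutation). The r was 0.847 on day 5 and 0.855 on day 13, and 0.799 without the 2 farthest libraries. Tgfbr1 went with the same list (r = 0.722, rho = 0.738, adjusted p = 0.00234 by permutation, 0.741 on day 5, 0.606 on day 13, and 0.762 without the 2 farthest). Both genes ran against the T cell list, with r = -0.661 for Tgfbi (rho = -0.729, adjusted p = 0.00297 by permutation) and r = -0.643 for Tgfbr1 (rho = -0.644, adjusted p = 0.000867 by permutation). On day 5 they were -0.683 for Tgfbi and -0.609 for Tgfbr1, on day 13 -0.560 and -0.842, and without the 2 farthest libraries -0.660 and -0.714.

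Smad7 went with Ptprc (r = 0.798, rho = 0.793, adjusted p = 0.00065 by permutation), at 0.851 on day 5, 0.709 on day 13 and 0.757 without the 2 farthest libraries. The other pairs that held without the 2 farthest were Tgfbr1 with the NK cell list (r = -0.585, rho = -0.604, -0.570 on day 5 and -0.715 on day 13) and Tgfbi with the regulatory T cell list (r = -0.655, rho = -0.725, -0.715 on day 5 and -0.366 on day 13). The relations of Acvr1b (r = -0.640, rho = -0.531) and Acvr2a (r = 0.547, rho = 0.586) with Ptprc and of Tgfbr1 with the regulatory T cell list (r = -0.588, rho = -0.626) no longer passed without those 2 libraries, where r was -0.418, 0.499 and -0.561. Inhba passed with no list: its r was -0.28 with macrophage and monocyte markers (-0.412 on day 5 and 0.686 on day 13), 0.17 with regulatory T cell markers, -0.01 with fibroblast markers and 0.38 with Ptprc (adjusted p = 0.26 by permutation).

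**Figure D4:**
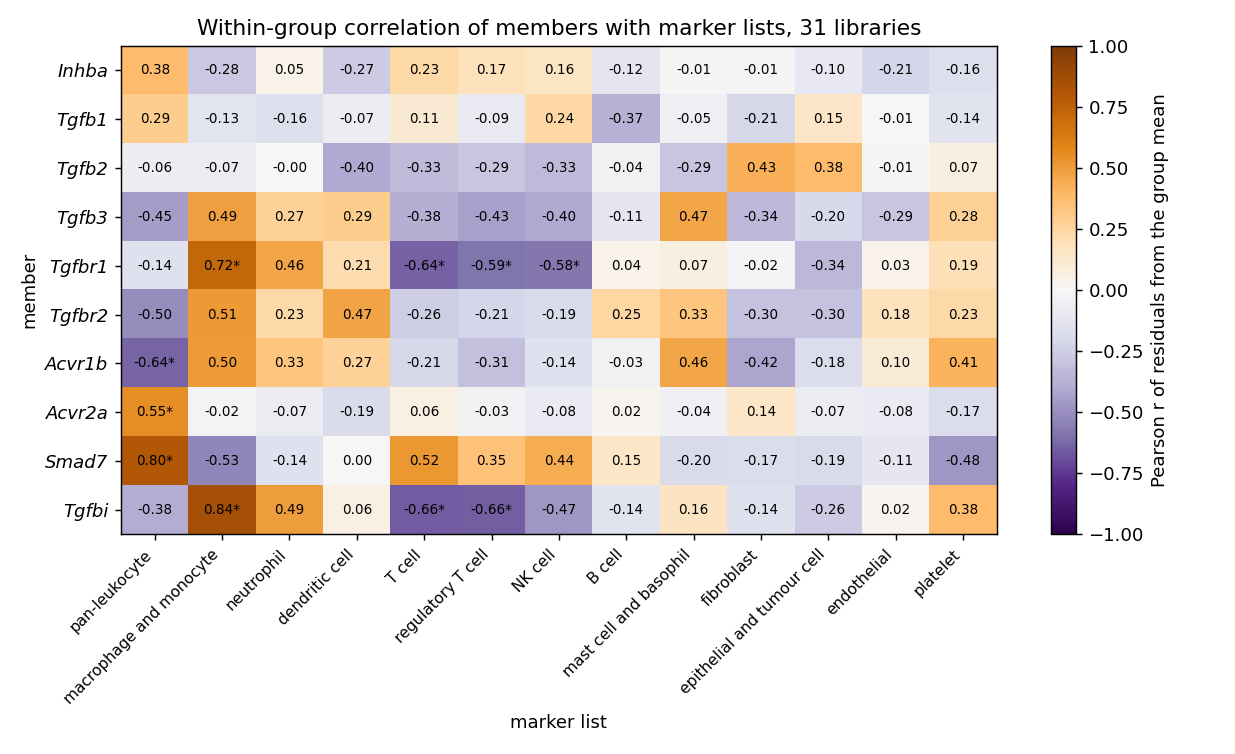
Pearson r (colour and number) of the within-group residuals of each member (vertical axis) with each marker list (horizontal axis) over 31 libraries, with an asterisk where the adjusted permutation p is below 0.05. The highest value is 0.84 for Tgfbi with macrophage and monocyte markers, and the Inhba row holds no asterisk.

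**Figure D5:**
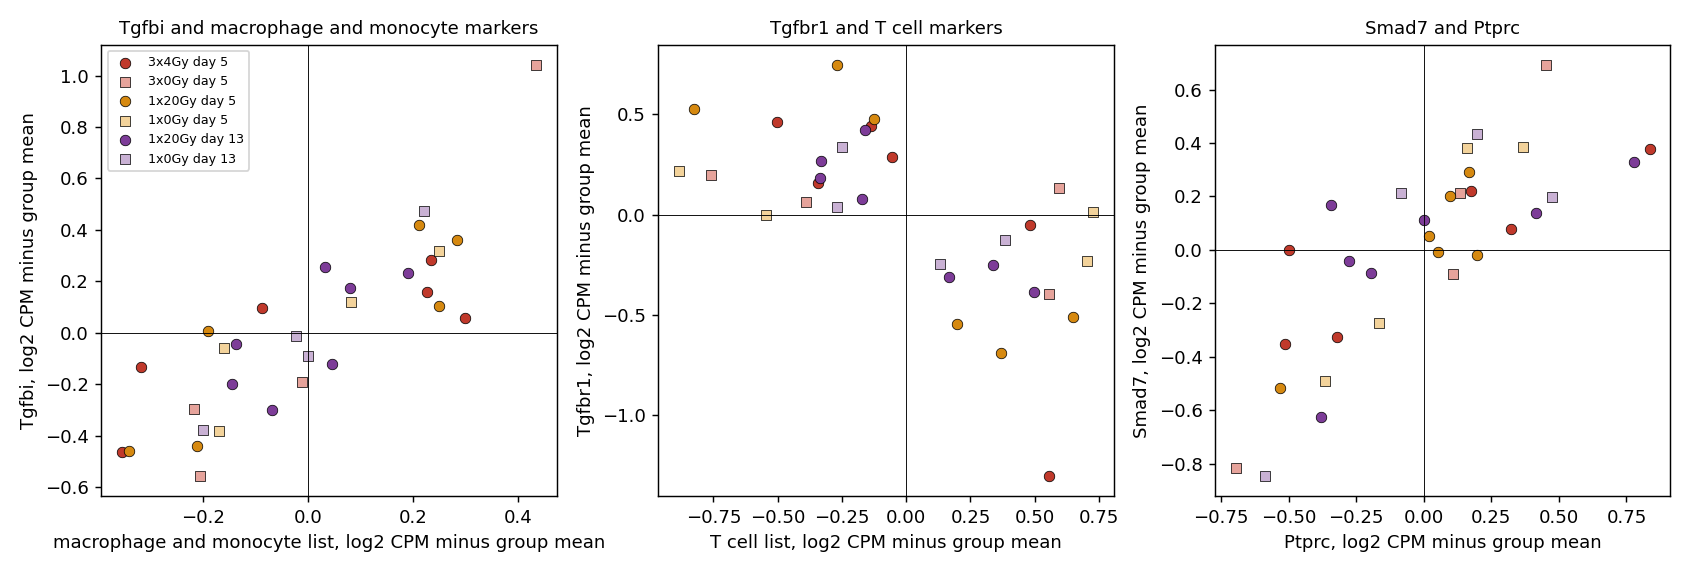
Log2 CPM minus the group mean of Tgfbi, Tgfbr1 and Smad7 (vertical axes) against that of macrophage and monocyte markers, T cell markers and Ptprc (horizontal axes), 1 point per library, circles for irradiated and squares for mock. The points follow r = 0.845, -0.643 and 0.798 in the 3 panels.

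Among the 45 pairs of members 9 had an adjusted p below 0.05, and 2 of these held without the 2 farthest libraries. One was Tgfbr1 with Tgfbi (r = 0.616, rho = 0.732, adjusted p = 0.0027 by permutation, and 0.769 without the 2 farthest). The other was Inhba with Tgfbr2, which ran in opposite directions within groups (r = -0.613, rho = -0.692, adjusted p = 0.0395 by permutation, and -0.674 without the 2 farthest). On day 5 this r was -0.644 and on day 13 -0.295, and it was -0.561 with the 2 libraries that stood apart left out. The 2 farthest libraries of a pair were those farthest from the median of the second gene named. The other 7 pairs no longer passed without those libraries, and kept the sign of r. Acvr1b with Tgfbi was at 0.513 without them (r = 0.642, rho = 0.580), Smad7 with Tgfbi at -0.458 (r = -0.597, rho = -0.547) and Tgfbr1 with Tgfbr2 at 0.356 (r = 0.678, rho = 0.471). The remaining 4 were between 0.224 and 0.394 without them.

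As a description, the 5 genes whose within-group residuals were most like those of Inhba among 9605 genes whose average was 5 CPM or higher were C330007P06Rik (r = 0.717), Trmt10a (r = 0.707), Mfhas1 (r = 0.696), Vdr (r = 0.677) and Pop1 (r = 0.673), over 31 libraries. Vdr encodes the vitamin D receptor. These were the highest of many values and carry no p.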

How the data were processed

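The deposited files hold raw read counts per gene symbol, 1 file per library, made by the authors with bcl2fastq 2.20.0.422, cutadapt 1.5, HISAT2 2.0.4 and HTSeq 0.9.1 on GRCm38 (mm10), per the submitters' processing notes. The annotation and the strand setting are not given in the sources used here. Lines that name no gene were left out of library sizes. The line for reads outside genes held 5.65 to 32.02% of uniquely placed reads. Groups came from the sample titles. The members and lists were chosen with earlier results of these data known.

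Counts were tested in R 4.3.3 with edgeR 4.0.16 (filterByExpr set to min.count 10 and min.total.count 15, TMM, quasi-likelihood test, two-sided, Benjamini-Hochberg over all genes, threshold 0.05). One fit held the 20 day 5 libraries, 1 the 11 of day 13, and 1 the 21 libraries of 1x20Gy and 1x0Gy on both days. The named genes are all members, each pathway gene called in a comparison with a mock, and the 5 genes most like Inhba; 1 called pathway gene is counted but not reported here. Alternatives were other scalings, no filter, DESeq2 1.42.0, limma 3.58.1 voom, other sets of libraries and a block by library number. Correlations used log2 CPM with a prior count of 2, computed here. The fit was tested on simulated data, where it recovered 73, 76 and 87% of 2-fold changes in the 3 comparisons with a mock. Changes were planted only in genes with more reads, so these shares do not cover low genes such as Inhbb and Fst. The simulated data also held no library that stood apart from its group. Lengths are exon unions of the reference annotation of GRCm38. Depth differs by library, and low genes such as Tgfb2 and Inhba in mock libraries are limited by counting.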

Additional observations from a re-analysis of the deposited data

Results flagged for a closer look

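In 60 groups, 10 genes in 6 groups each, 6 single values lay far from the rest of their group by Dixon's gap test. By chance about 1 in 20 is flagged, but some of these values share a library, so they are not independent. In 3x4Gy library 1, Tgfb3 was at 4.51 CPM (the others 9.84 to 14.9), Tgfbr1 at 57.2 CPM (133 to 195) and Tgfbr2 at 21.8 CPM (59.99 to 95.1), and this library is 1 of the 2 that stood apart as a whole. In 3x0Gy library 2, the other of these, Acvr1b was at 27.3 CPM (the others 10.5 to 10.9). Tgfb2 was at 1.26 CPM in 3x4Gy library 2 (the others 0.458 to 0.654), and Tgfbr1 at 122 CPM in 3x0Gy library 1 (172 to 184).

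Among the members and the pathway genes called against a mock, edgeR called 3 in the difference of the 1x20Gy responses of day 13 and day 5. In that contrast 2.01% of all 11766 genes were called, and nothing is read from the count of 3. The log2 difference was -2.50 for Inhba, 0.78 for Tgfb1 and -1.12 for Thbs1, whose call ended in most fits without 1 library. For all 3 it is a description with no p-value. The choice of members, and the naming of Thbs1, used the contrasts it is built from. Day and any batch that goes with the sample codes cannot be told apart in these values.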

How the results depend on the processing

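No called value changed sign. The Inhba calls of day 5 held in all 35 alternative fits (log2 2.98 to 3.53 in 3x4Gy, 2.73 to 3.29 in 1x20Gy). In 3x4Gy against 3x0Gy, fitting only the libraries compared gave 702 genes called (main 1477), 10 pathway genes (main 16) and 1 member (main 2). The calls that this setting ended included those of Acvr1b, Lrrc32, Thbs1, Acvr1, Bmpr1a and Id2. Voom and leaving out both libraries that stood apart also gave 1 member. Without 1 library at a time the ranges were 1132 to 1815 genes, 12 to 16 pathway genes and 1 to 3 members. For 1x20Gy on day 5 they were 556 to 1024 genes (main 1028) and 5 to 12 pathway genes (main 10). For day 13 they were 306 to 1264 genes (main 891), 1 to 10 pathway genes (main 6) and 0 to 1 members. Members called on day 13 (main 0) were 1 with upper quartile scaling, 2 with no filter, 2 with DESeq2, 1 with voom and 1 with the replicate block. In 3x4Gy against 1x20Gy (main 3 genes) no filter gave 5, DESeq2 14, voom 0, only the libraries compared 1, both libraries left out 0, and single libraries left out 0 to 5. For the difference of the responses (main 0) no filter gave 1, DESeq2 1, both libraries left out 2, and single libraries left out 0 to 1. Between the mocks (main 0) no filter gave 1, DESeq2 2, and single libraries left out 0 to 1. For the day 13 response against day 5 (main 237) DESeq2 gave 459 and single libraries left out 91 to 370. Among member pairs 9 correlations passed, and 2 without the 2 farthest libraries. The causes of these changes were not tested. Upper quartile scaling lowered the share of called genes that were higher to 28.8% in 3x4Gy (main 42.3%), 29.8% in 1x20Gy on day 5 (main 42.9%) and 42.9% on day 13 (main 52.4%), where more genes were then lower than higher.

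Library numbers were not taken to pair the samples: the correlation of same-numbered libraries ran from -0.255 to 0.401, though 8 of 12 irradiated libraries correlated best with the mock library of their own number. With the replicate block the genes called numbered 1223 (genes called, 3x4Gy against 3x0Gy, day 5), 876 (genes called, 1x20Gy against 1x0Gy, day 5) and 1064 (genes called, 1x20Gy against 1x0Gy, day 13), and 4, 0, 0 and 212 in the other 4 comparisons. The block ended the calls of Thbs1, Fst and Bmpr1a in 3x4Gy, and of Tgfb3, Ltbp1, Bmp1 and Bmpr1a in 1x20Gy on day 5. It also ended those of Gdf11 on day 13 and of Thbs1 between the days, and added that of Tgfbr1 on day 13.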
